A study of Mus musculus with 6 samples.

Results

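Cholesterol synthesis and its control by SREBP2 were followed in mouse calf muscle through 7 genes. These were the genes whose symbol in the deposited count table was Srebf2, Insig1, Hmgcs1, Idi1, Fdft1, Sqle or Hsd17b7. All 7 were found among 47967 genes, and all 7 passed the filter on low counts. RNA was sequenced from the gastrocnemius of male C57BL6 mice aged 20 to 24 weeks, with no genetic change named in the labels, after 12 weeks on 1 of 2 diets. The normal phosphate diet held 0.6% inorganic and 0.9% total phosphate, and the high phosphate diet 2.0% and 2.3%. Both diets had the same magnesium (0.3%), calcium (1.9%), potassium (1.8%) and sodium (0.9%). There were 3 libraries per diet. Whether each library is from its own mouse is not stated in the labels, and p-values then measure only the spread between libraries, part of which may be technical.

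Cells build cholesterol from acetyl-CoA in a first stage, the mevalonate pathway, and a second stage that joins the products into squalene and turns it into sterols. SREBP2, the protein of Srebf2, is held in the endoplasmic reticulum membrane with its escort SCAP by the INSIG proteins when sterols are plentiful. When sterols are scarce it moves to the Golgi, is cut by site 1 and site 2 proteases and enters the nucleus, where it raises transcription of most genes of the pathway and of Insig1. In muscle the mevalonate pathway also supplies ubiquinone and the lipid anchors of small GTPases.

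Promoter sequence was looked at because these genes are known as targets of 1 transcription factor. Of the 7 genes, 5 had an entry in the RefSeq promoter table of build GRCm38.p6, and Sqle and Fdft1 were not among them. The 250 bases before the start were searched on both strands for CCAAT, for TCACNCCAC (the core of a sterol regulatory element) and for CACGTG (an E-box), motifs that do not overlap each other in these windows. CCAAT, the box read by NF-Y, a partner of SREBP2, was present in all 5 and in 33.8% of 32851 promoters. TCACNCCAC was in 1 of the 5, Hmgcs1, and in 1.05% of all promoters, and CACGTG was in 2 of the 5, Hsd17b7 and Insig1, and in 6.02% of all promoters. A match is a description of the letters and not a binding site. The windows of 4 genes are shown from RefSeq, 5′ to 3′ on the gene's strand and ending before any annotated transcript start. Between them they hold matches to all 3 motifs, though no window holds all 3. The window of Idi1, cut in the same way, holds no match and is not shown. The motifs did not divide these genes by direction, since CACGTG was in Hsd17b7, which rose, and in Insig1, which fell. Capitals mark the matches, and ATTGG is CCAAT read from the other strand. They lie at chr13:119690101-119690350 on the plus strand (Hmgcs1), chr1:169969242-169969455 on the minus strand (Hsd17b7), chr15:82147019-82147180 on the plus strand (Srebf2) and chr5:28071162-28071362 on the plus strand (Insig1).
Hmgcs1: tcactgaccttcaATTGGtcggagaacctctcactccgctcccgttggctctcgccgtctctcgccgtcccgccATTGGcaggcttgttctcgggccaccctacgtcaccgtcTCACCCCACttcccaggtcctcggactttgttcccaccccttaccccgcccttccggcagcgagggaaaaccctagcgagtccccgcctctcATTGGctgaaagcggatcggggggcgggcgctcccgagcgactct
Hsd17b7: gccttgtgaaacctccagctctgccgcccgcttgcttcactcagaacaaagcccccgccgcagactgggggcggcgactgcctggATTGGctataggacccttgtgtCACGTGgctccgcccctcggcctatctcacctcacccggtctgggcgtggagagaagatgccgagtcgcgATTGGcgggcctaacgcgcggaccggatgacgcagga
Srebf2: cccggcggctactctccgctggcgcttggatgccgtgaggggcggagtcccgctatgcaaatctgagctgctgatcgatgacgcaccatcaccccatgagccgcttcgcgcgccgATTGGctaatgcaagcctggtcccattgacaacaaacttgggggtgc
Insig1: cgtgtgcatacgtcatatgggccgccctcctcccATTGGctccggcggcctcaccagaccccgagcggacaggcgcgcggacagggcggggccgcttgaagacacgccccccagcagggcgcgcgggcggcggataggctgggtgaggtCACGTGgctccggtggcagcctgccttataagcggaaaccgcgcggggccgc
The Hmgcs1 window holds 3 CCAAT boxes and the TCACNCCAC match, 137 bases before the RefSeq start. Hsd17b7 and Insig1 each hold a CACGTG, 143 and 101 bases before the start. Hsd17b7 has 3 CCAAT boxes in its full 250 bases, Idi1 has 2, and Srebf2 and Insig1 have 1 each.

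Of the 7 genes, 5 were called between the diets by the quasi-likelihood test of edgeR (Benjamini-Hochberg adjustment over 15347 genes, adjusted p under 0.05), where 49.3% of all genes were called. Hsd17b7 and Fdft1 were higher on high phosphate, a direction that held 23.0% of all genes. Srebf2, Insig1 and Sqle were lower, as were 26.3% of all genes. Idi1 and Hmgcs1 were not called. The median log2 fold change of the 7 was -0.65, beside -0.016 for all genes, and it was -0.36 without normal phosphate replicate 3. In 6 of the 7 the libraries of the diets did not overlap, which held for 62.4% of all genes. Beside shares that large, the number of calls among 7 genes is no result about them, and the values of each are given below. Counts of calls in the lists below are to be read beside the same shares. When libraries were scaled by their totals alone, the median of all genes was -0.49, a shift of -0.48. Calls over all genes were then 878 higher and 7886 lower, against 3528 higher and 4035 lower with TMM, the scaling used here unless another is named.

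Levels below are CPM (counts scaled to a common library total) after TMM scaling, and values before and after "against" are replicates 1, 2 and 3 on the normal and then the high phosphate diet. Log2 fold changes, with their SE, are positive where the high phosphate diet was higher, and adjusted p is that of the edgeR test. Across the 7 genes a library held 49 to 1816 counts, so the smallest value carried a counting error of 14.3%. Per length, the deposited FPKM values on normal phosphate were highest for Insig1 (16.7 ± 6.81, SD, n = 3), Fdft1 (16.2 ± 1.98) and Hmgcs1 (15.3 ± 1.98), whose libraries overlapped. Srebf2 (8.76 ± 1.21) and Idi1 (5.51 ± 0.576) followed without overlap, and Sqle (2.52 ± 0.942) and Hsd17b7 (1.63 ± 0.763), the lowest, overlapped each other. On high phosphate Fdft1 stood first at 18.9 ± 1.26 FPKM, and Sqle stood last at 0.364 ± 0.0621 FPKM, each apart from its neighbour. Between them came Hmgcs1 (8.90 ± 0.383) and Insig1 (6.43 ± 2.03), which overlapped, then Srebf2 (3.81 ± 0.225), and then Hsd17b7 (3.15 ± 0.342) and Idi1 (2.84 ± 0.166), which overlapped.

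**Figure D1:**
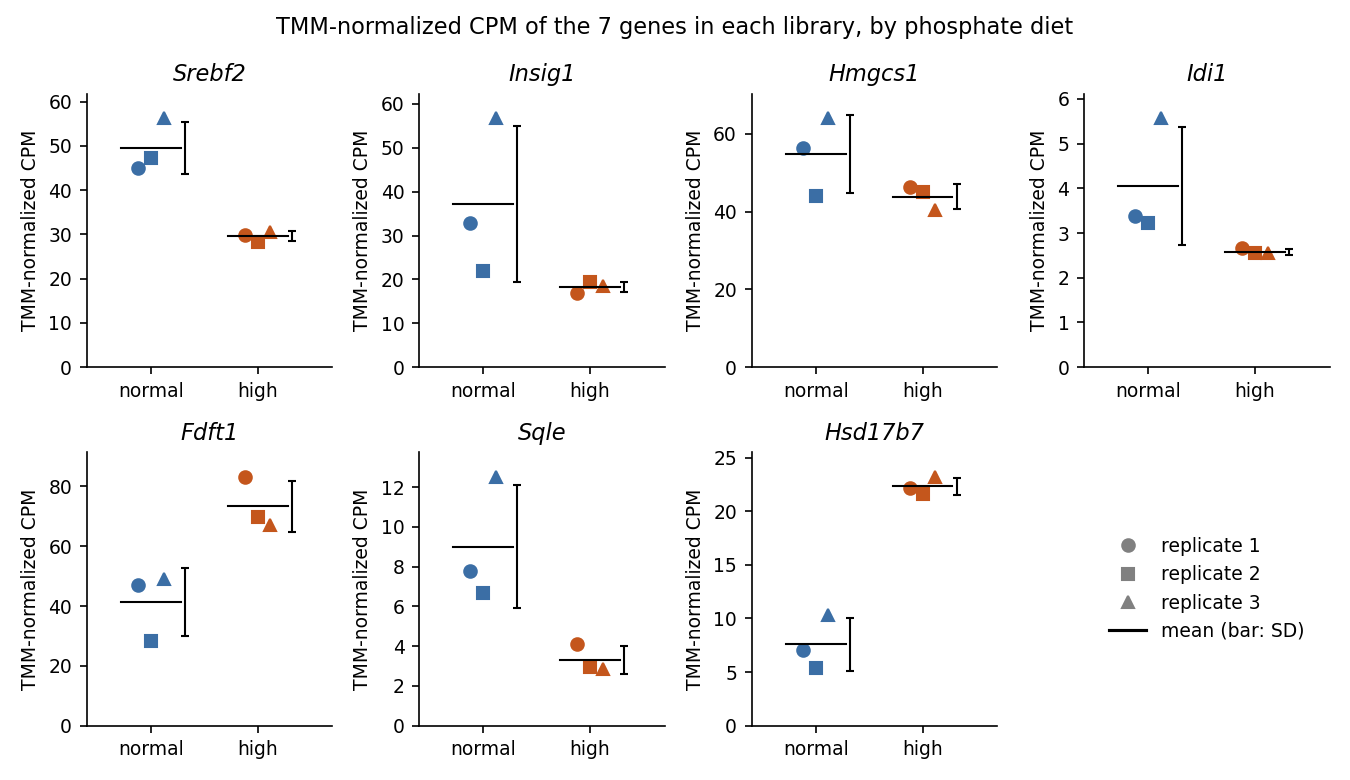
TMM-normalized CPM (vertical axes, each from 0) of the 7 genes in each library, with normal phosphate at the left and high phosphate at the right of each panel; lines are means of 3 libraries and bars their SD. Hsd17b7 and Fdft1 are higher on high phosphate, Hmgcs1 is the 1 gene whose diets overlap, and replicate 3 is the highest normal phosphate library for all 7 genes.

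The regulator itself fell. Srebf2 (ENSMUSG00000022463, chr15:82147181-82205379, GRCm38) was at 45.1, 47.2 and 56.2 CPM against 29.9, 28.3 and 30.5 CPM. All 3 high phosphate libraries lay below all 3 normal phosphate libraries. The log2 fold change was -0.74 ± 0.11 (95% interval -0.99 to -0.49, adjusted p = 0.00113), from 49.5 ± 5.90 to 29.6 ± 1.13 CPM. FPKM values did not overlap either, at 7.39, 9.19 and 9.70 against 3.63, 3.73 and 4.06. Per CPM by library totals without TMM they ranged only from 0.149 to 0.153, so they follow those counts and are no separate measure. In whole tissue, fewer cells of a type and less RNA per cell cannot be told apart.

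Insig1, which holds the SREBP2 and SCAP complex back and is itself a target of SREBP2, also fell. The gene (ENSMUSG00000045294, chr5:28071363-28078662) was at 32.8, 22.0 and 56.7 CPM against 17, 19.4 and 18.5 CPM. The diets did not overlap, though normal phosphate replicate 2 lay close to the highest high phosphate library and replicate 3 stood far above the other normal libraries. The log2 fold change was -1.02 ± 0.31 (95% interval -1.75 to -0.29, adjusted p = 0.0291). Without normal phosphate replicate 3 it was -0.59 (adjusted p = 0.0218), and without any 1 of the high phosphate libraries the call was lost, with adjusted p of 0.0723 to 0.0913 at nearly unchanged log2 fold changes of -1.05 to -0.96. With no filter on low counts adjusted p was 0.164.

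The other 4 genes of SREBP2 control counted 2 higher and 1 lower, with a median of 0.16. With Srebf2 and Insig1, 2 of the 6 were higher and 3 lower, with a median of -0.25. Insig2, the other retention protein, was at 75.6, 55.9 and 69.7 CPM against 89.0, 89.0 and 91.3 CPM, without overlap. Its log2 fold change was 0.42 ± 0.12 (adjusted p = 0.0197), but -0.044 with library totals alone and 0.0047 on log2(FPKM + 1) (adjusted p = 0.987), where the diets overlapped, and the call was lost without high phosphate replicate 3 (adjusted p = 0.0587). Mbtps1, the site 1 protease, fell from 87.0 ± 10.9 to 64.0 ± 6.11 CPM (adjusted p = 0.0160), a call lost without high phosphate replicate 1 (adjusted p = 0.0691) or 2 (0.0630). Mbtps2, the site 2 protease, rose from 20.6 ± 0.343 to 26.5 ± 1.05 CPM (adjusted p = 0.0112), with a log2 fold change of 0.36 that became -0.11 with library totals alone and -0.038 on log2(FPKM + 1). Scap, the escort, was at 26.6 CPM on normal and 25.7 CPM on high phosphate and was not called (adjusted p = 0.675), but with library totals alone it was lower (log2 -0.53, adjusted p = 0.00879). Yy2 lies over 28.4% of the exonic bases of Mbtps2 on the same strand, so the value of Mbtps2 is uncertain.

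Within the mevalonate stage, 2 of 8 genes were called, both lower, beside 26.3% of all genes called lower. The list's median log2 fold change was -0.35. Hmgcs1 (ENSMUSG00000093930, chr13:119690379-119708260), the cytosolic synthase that makes HMG-CoA, was at 56.4, 44.1 and 64.0 CPM against 46.2, 45.0 and 40.3 CPM. Normal phosphate replicate 2 lay inside the high phosphate range, so the diets overlapped. The log2 fold change was -0.32 ± 0.14 (95% interval -0.64 to -0.0066) with an unadjusted p of 0.0463 and an adjusted p of 0.0829, so Hmgcs1 was not called. Without normal phosphate replicate 2 it was -0.46 with an adjusted p of 0.00797. In FPKM the diets did not overlap, at 14.6, 13.7 and 17.5 against 8.97, 9.24 and 8.49, and limma on log2(FPKM + 1) gave -0.71 (adjusted p = 0.00747). The FPKM of Hmgcs1 per CPM, by library totals without TMM, ranged only from 0.236 to 0.244. Its FPKM thus follow the counts scaled by library totals alone, for which edgeR gave -0.79 (adjusted p = 0.00100), and are no separate measure. Gm48342, on the opposite strand, covers 12.1% of the exonic bases of Hmgcs1.

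Idi1 (ENSMUSG00000058258, chr13:8885501-8892451), the isomerase that balances the 5-carbon building blocks, was at 3.37, 3.22 and 5.56 CPM against 2.66, 2.55 and 2.54 CPM. The high phosphate libraries lay close together and below every normal phosphate library. The log2 fold change was -0.65 ± 0.25 (95% interval -1.21 to -0.084), with an unadjusted p of 0.0286 and an adjusted p of 0.0563. Without normal phosphate replicate 3 it was -0.36 (adjusted p = 0.247), and without normal phosphate replicate 1 (-0.76, adjusted p = 0.0459) or 2 (-0.79, adjusted p = 0.0303) it passed the threshold. In FPKM Idi1 went from 5.51 ± 0.576 to 2.84 ± 0.166 without overlap, and limma on log2(FPKM + 1) called it at -0.76 (adjusted p = 0.00781). Of the distinct 50-base stretches in its transcripts, 25.3% were found in other genes too, mainly the pseudogene Gm13502. That pseudogene held 3 counts over all libraries, but its FPKM were 2.26, 1.73 and 3.76 against 1.63, 1.24 and 1.91. The FPKM of Idi1 per CPM, by library totals without TMM, ranged from 0.924 to 1.39, so its FPKM values are uncertain.

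Acat2, the thiolase that opens the pathway, was among the genes called, from 7.07 ± 1.77 to 4.28 ± 0.220 CPM (adjusted p = 0.0162), a call lost without normal phosphate replicate 3 (adjusted p = 0.0630) or high phosphate replicate 2 (0.0563) and on log2(FPKM + 1) (0.110). Of the distinct 50-base stretches in Acat2's transcripts, 39.1% were shared with other genes, mainly Acat3. Fdps, which makes farnesyl pyrophosphate, was at 1.48 CPM on normal and 1.81 CPM on high phosphate and was not called (adjusted p = 0.441), and its FPKM were 13.4 and 11.9. Gm43738 lies over 26.7% of its exonic bases on the same strand, where reads can be left out of a count or split between genes. With library totals alone all but 1 of the 8 mevalonate genes were called lower.

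The sterol stage held the genes that rose. Fdft1 (ENSMUSG00000021273, chr14:63145150-63179578), squalene synthase, the first enzyme committed to sterols, was at 47.0, 28.2 and 48.9 CPM against 83.2, 69.7 and 67.1 CPM. Every high phosphate library was above every normal phosphate library, and the mean went from 41.4 ± 11.5 to 73.3 ± 8.67 CPM. The fold change was 1.77 (log2 0.83 ± 0.20, adjusted p = 0.00953). In FPKM the diets overlapped, at 16.7, 14.0 and 17.9 against 20.3, 18.7 and 17.8, and limma on log2(FPKM + 1) gave 0.22 (adjusted p = 0.170). With library totals alone edgeR gave 0.36 (adjusted p = 0.0776). Ctsb, a lysosomal protease gene on the opposite strand, overlaps 18.3% of the exonic bases of Fdft1. Of the distinct 50-base stretches in Fdft1's transcripts, 26.5% were also found in another gene. The strand setting of the counting is not given in the sources used here, so reads from the overlap cannot be told apart. Ctsb itself fell, from 653 ± 108 to 402 ± 59.4 CPM (log2 -0.70 ± 0.19, adjusted p = 0.0125), a call lost without high phosphate replicate 3 (adjusted p = 0.0679).

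Sqle (ENSMUSG00000022351, chr15:59315077-59331192), squalene epoxidase, acts right after squalene synthase and fell. It was at 7.78, 6.70 and 12.5 CPM against 4.12, 2.96 and 2.86 CPM, without overlap. The mean was 2.71-fold lower on high phosphate (log2 -1.44 ± 0.27, adjusted p = 0.00255). In FPKM it went from 1.83, 2.13 and 3.59 to 0.435, 0.336 and 0.320, a larger gap than in counts. The FPKM of Sqle per CPM, here by library totals without TMM, was 0.237 on normal and 0.130 on high phosphate on average, whereas a fixed gene length would give the same value in every library.

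Hsd17b7 (ENSMUSG00000026675, chr1:169949535-169969241), the 3-keto reductase that acts in removal of the methyl groups at carbon 4 of the sterol ring, rose most. It was at 7.05, 5.42 and 10.3 CPM against 22.2, 21.6 and 23.2 CPM. Every high phosphate library exceeded every normal phosphate library, by more than the range within either diet. The fold change was 2.94 (log2 1.56 ± 0.21, adjusted p = 0.000801), and with library totals alone it was log2 1.09 (adjusted p = 0.00215). FPKM went from 1.36, 1.04 and 2.49 to 2.89, 3.01 and 3.53, also without overlap. None of its exonic bases overlapped a gene on the other strand.

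The partners of Hsd17b7 in carbon 4 demethylation moved the other way. Msmo1, the oxidase that starts the reaction, was at 10.3, 10.9 and 18.2 CPM against 6.09, 6.78 and 6.65 CPM (log2 -1.01 ± 0.22, adjusted p = 0.00515). Nsdhl, the decarboxylating dehydrogenase between them, was at 11.9, 10.1 and 14.2 CPM against 8.11, 8.61 and 7.74 CPM (log2 -0.57 ± 0.15, adjusted p = 0.0130), a call lost without high phosphate replicate 3 (adjusted p = 0.0532). For neither did the diets overlap.

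Of the 12 genes of the sterol stage, 2 were called higher and 6 lower, with a median of -0.36. Besides Sqle, Msmo1 and Nsdhl, the lower genes included Cyp51 and Ebp. Cyp51, the lanosterol demethylase, fell from 12.6 ± 3.78 to 7.10 ± 0.509 CPM (adjusted p = 0.00977). Ebp, a sterol isomerase, fell from 13.7 ± 0.204 to 9.44 ± 0.50 CPM (adjusted p = 0.00473). Lss, which closes the sterol rings, was at 8.70 and 8.32 CPM (adjusted p = 0.797), and Dhcr7, which makes the last double-bond reduction of its branch, at 9.60 and 8.40 CPM (adjusted p = 0.238). With library totals alone both were lower, Lss at log2 -0.53 (adjusted p = 0.0466) and Dhcr7 at -0.67 (adjusted p = 0.00412). Among the 15 enzymes of both stages that are not among the 7 genes, 0 were higher and 7 lower, with a median of -0.37. Leaving out 1 library at a time gave 5 to 8 lower and medians from -0.24 (without high phosphate replicate 3) to -0.56 (without high phosphate replicate 2).

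**Figure D2:**
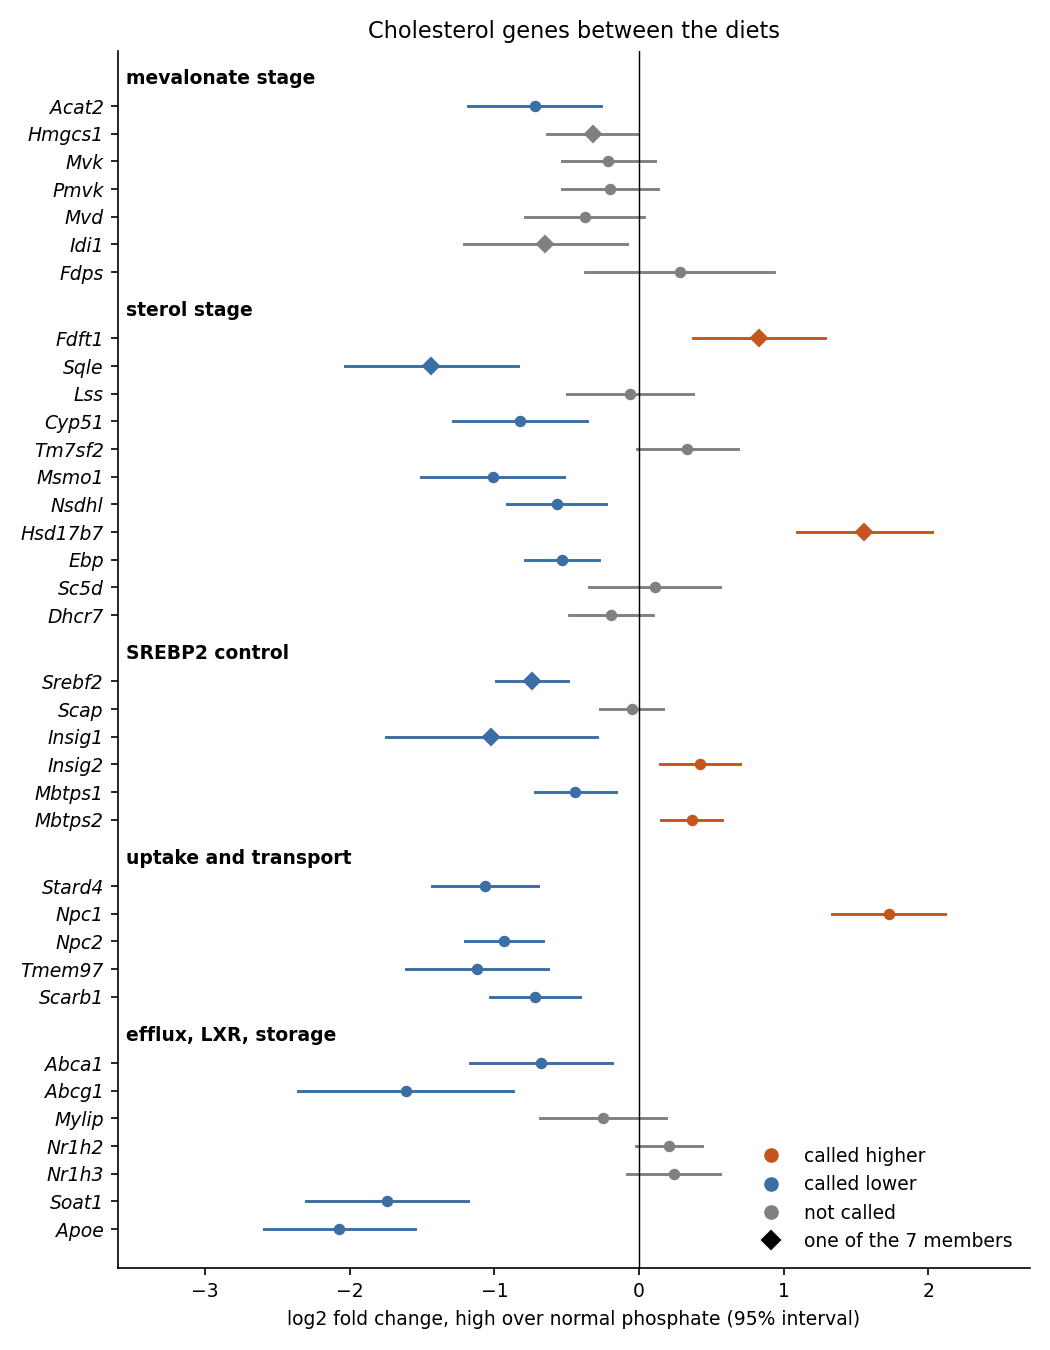
Log2 fold change, high over normal phosphate (horizontal axis), of cholesterol genes by role, with the 95% interval of the edgeR fit; diamonds are the 7 genes and colours show the call at an adjusted p under 0.05. Fdft1 at 0.83 and Hsd17b7 at 1.56 are the 2 synthesis enzymes called higher.

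The balance of higher and lower calls depended on the scaling. With library totals alone the synthesis enzymes of both stages counted 1 higher and 15 lower with a median of -0.82, as the median of all genes was -0.49. With log2(FPKM + 1) they counted 1 higher and 12 lower with a median of -0.66, where all genes had a median of -0.29 and 725 higher against 5653 lower. Under both, 1 of the 7 genes was higher (Hsd17b7) and 5 were lower (Srebf2, Insig1, Sqle, Hmgcs1 and Idi1), with Fdft1 not called.

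**Figure D3:**
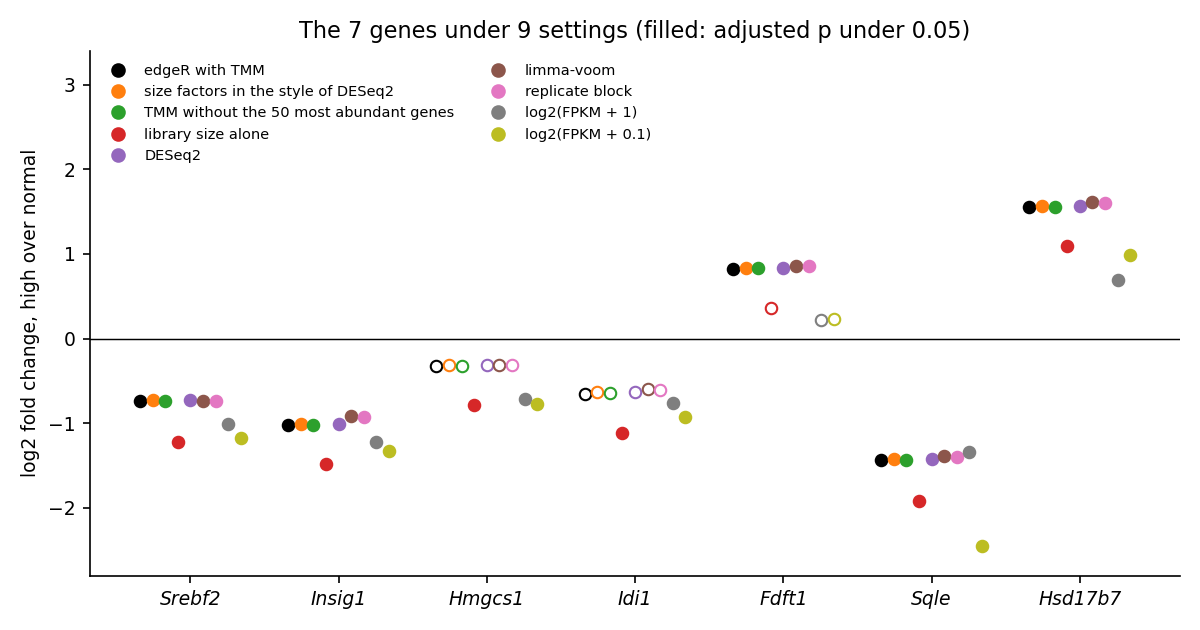
Log2 fold change, high over normal phosphate (vertical axis), of the 7 genes under 9 settings of scaling, test or unit; filled points had an adjusted p under 0.05. Srebf2, Insig1, Sqle and Hsd17b7 are filled under every setting shown, Fdft1 is open with library totals and FPKM, and Hmgcs1 and Idi1 are filled only with those.

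Ratios of counts between 2 genes within a library do not depend on library scaling, and 9 were compared, of which 8 are given. With 3 against 3 libraries the two-sided exact permutation test cannot go below p = 0.1, which adjusts to 0.15 over the 9. Per Srebf2 count, Hsd17b7 gave 0.157, 0.115 and 0.183 counts on normal and 0.743, 0.763 and 0.760 on high phosphate, a log2 difference of 2.34 (exact permutation p = 0.1). Per Srebf2 count, Fdft1 gave 1.04, 0.597 and 0.870 against 2.78, 2.46 and 2.20, a log2 difference of 1.6 (exact permutation p = 0.1). Neither ratio overlapped between the diets. Sqle per Srebf2 gave 0.173, 0.142 and 0.223 against 0.139, 0.105 and 0.0943, a log2 difference of -0.67. Normal phosphate replicate 2 and high phosphate replicate 1 were nearly equal there. Hmgcs1 per Srebf2 gave 1.25, 0.935 and 1.14 against 1.55, 1.59 and 1.32, a log2 difference of 0.43. Both were without overlap and at the smallest exact permutation p of 0.1. Insig1 per Srebf2 (log2 -0.18, exact permutation p = 0.7) and Idi1 per Srebf2 (log2 0.14, exact permutation p = 0.4) overlapped. A p of that size does not show that they moved together with Srebf2.

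Ratios within 2 pairs of related genes were also taken, and both reached the smallest p the test allows, which does not pass the threshold. Insig1 per Insig2 was 0.434, 0.394 and 0.814 on normal and 0.191, 0.218 and 0.203 on high phosphate (log2 difference -1.35, exact permutation p = 0.1, no overlap). Srebf2 per Srebf1, the gene of the factor better known for fatty acid synthesis, was 0.732, 0.731 and 0.483 against 0.292, 0.399 and 0.346 (log2 difference -0.89, exact permutation p = 0.1, no overlap).

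**Figure D4:**
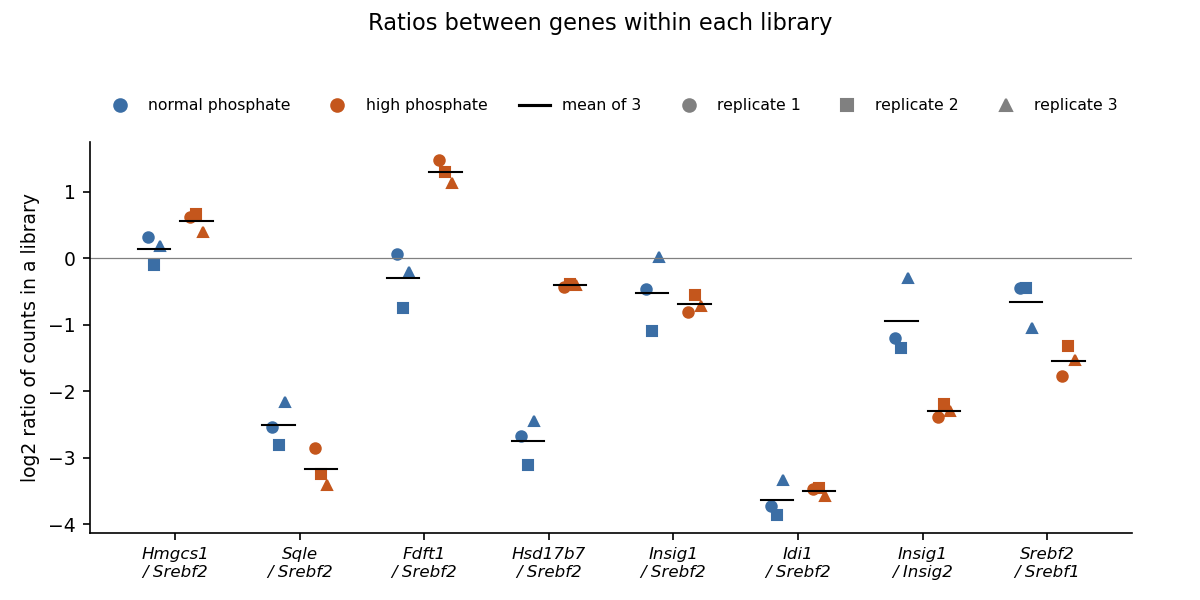
Log2 ratio of the counts of 2 genes in each library (vertical axis), for 8 pairs, with normal phosphate in blue, high phosphate in orange and lines at the mean of 3 libraries. Fdft1 and Hsd17b7 per Srebf2 lie 1.6 and 2.34 higher on high phosphate, whereas Insig1 and Idi1 per Srebf2 overlap.

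Uptake and transport genes were mostly lower. Of 8, 6 were tested, and 1 was called higher and 5 lower, with a median of -0.99. Stard4, a cytosolic sterol carrier, fell from 17.9 ± 2.58 to 8.55 ± 1.42 CPM (adjusted p = 0.00120). Tmem97, an endoplasmic reticulum protein that binds NPC1, fell by 1.12 on the log2 scale (adjusted p = 0.00319). Of the distinct 50-base stretches in its transcripts, 20.8% were shared with other genes. Scarb1, the HDL receptor, went from 60.0 to 36.5 CPM (adjusted p = 0.00305). The lysosomal cholesterol exporters parted. Npc1 rose from 37.3, 38.1 and 42.8 CPM to 105, 168 and 118 CPM (log2 1.72 ± 0.17, adjusted p = 0.000316), while Npc2 fell from 122, 142 and 122 CPM to 62.4, 74.9 and 65.2 CPM (log2 -0.93 ± 0.12, adjusted p = 0.000684). Lrp8, a lipoprotein receptor, was among those not tested, with 70 counts over all libraries.

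Genes of efflux, sterol esters and the LXR receptors counted 0 higher and 4 lower of 7, with a median of -0.68. Apoe, the lipoprotein of macrophages and other cells, fell from 866 ± 238 to 206 ± 36.5 CPM (adjusted p = 0.000445). Abcg1, a sterol exporter, went from 8.96 to 2.93 CPM (adjusted p = 0.00434), and Abca1, the exporter to apolipoproteins, fell by 0.68 on the log2 scale (adjusted p = 0.0287), which was -0.41 without normal phosphate replicate 2 (adjusted p = 0.0533) and lost its call without 4 other libraries as well. Soat1, which esterifies cholesterol, fell from 13.8 ± 4.92 to 4.13 ± 0.490 CPM (adjusted p = 0.00103), but on log2(FPKM + 1) its value was 0.09.

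The isoprenoid branch, which draws on the same precursors for ubiquinone and for prenyl anchors, counted 4 higher and 0 lower of 8, with a median of 0.21. Fntb, a farnesyltransferase subunit, rose from 11.3 ± 0.762 to 19.7 ± 2.09 CPM (log2 0.81 ± 0.12, adjusted p = 0.00115). Pdss2, which makes the ubiquinone side chain, rose by a log2 fold change of 0.64 ± 0.13 (adjusted p = 0.00388). Fnta, the shared prenyltransferase subunit (0.34, adjusted p = 0.0359), and Coq2, which attaches the side chain (0.42, adjusted p = 0.0443), were the other 2. With library totals alone the list held 0 higher and 4 lower, with a median of -0.26, so its direction depended on the scaling. On log2(FPKM + 1) it held 0 higher and 1 lower. It held 2 higher without any 1 of normal phosphate replicates 2 and 3 and high phosphate replicates 1 and 3, and 3 higher without high phosphate replicate 2.

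The fatty acid genes usually tied to SREBP1 are given for comparison. Srebf1 was at 61.6, 64.6 and 116 CPM against 102, 71.0 and 88.2 CPM, overlapped and was not called (log2 0.11 ± 0.25, adjusted p = 0.743), and its sign turned with library totals alone (-0.37). Without normal phosphate replicate 3 it was 0.46 (adjusted p = 0.0454). Acaca, the carboxylase that commits carbon to fatty acids, fell from 108 ± 11.7 to 29.6 ± 1.41 CPM (adjusted p = 5.8e-05). Elovl6, a fatty acid elongase, fell from 12.1 ± 1.89 to 2.81 ± 0.317 CPM (adjusted p = 0.00018), and Acly, which makes cytosolic acetyl-CoA for both fatty acids and cholesterol, from 145 ± 8.79 to 43.6 ± 4.77 CPM (adjusted p = 9.4e-05). Me1, the cytosolic malic enzyme that supplies NADPH, was the 1 gene of the list called higher, from 172 ± 31.9 to 353 ± 46.9 CPM (adjusted p = 0.00183). Of the distinct 50-base stretches in transcripts of Acaca and Me1, 30.4% and 28.3% were shared with other genes, mainly Gm5182 and Gm7049. Of the 11 fatty acid genes 1 was higher and 8 lower, with a median of -1.25 beside the -0.65 of the 7 cholesterol genes (-0.36 without normal phosphate replicate 3). No test of the difference between the lists was made.

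Among the 7 genes, libraries ranked alike within groups of genes. Normal phosphate replicate 3 was the highest normal library for all 7 and replicate 2 the lowest for 6, and the SD of CPM was smaller on high than on normal phosphate for all 7. The shares of all genes with these ranks and SD were not counted, so they are no result about the 7. Over the 6 libraries Pearson's r of log2 CPM was 0.96 for Sqle with Srebf2, 0.96 for Insig1 with Idi1 and 0.93 for Fdft1 with Hsd17b7, and it was -0.85 for Hsd17b7 with Srebf2. These r values describe 6 libraries that share the diet contrast. Hmgcs1 followed Insig1 (0.93) more closely than Srebf2 (0.74). Of 8689 genes at 10 CPM or more, those most like the mean of the 7 were Ppp2r5a (r = 0.978), Slc25a23 (0.977) and Zfp398 (0.976), none of which was called. That mean joins genes that fell with genes that rose, so the diet contrast partly cancels in it. Those most like Srebf2 were Slc1a5 (0.995), Zfp503 (0.994) and Inpp5f (0.994), and those most like Hmgcs1 were Rassf3 (0.974), Rps21 (0.969) and Cyp26b1 (0.959). An r over 0.9 with Srebf2 was reached by 564 of the 8689 genes (6.49%), so the 3 named are not particular to it. For Hmgcs1 that number was 20, and for the mean of the 7 it was 9.

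The libraries held 21856006 to 27474251 counts, and the first principal component (77.3% of variance) separated the diets, with normal phosphate replicate 2 farthest out among its diet. Skeletal muscle markers, by which the tissue label was checked, summed to 69500 to 101542 CPM on normal and 191340 to 238292 CPM on high phosphate, with 7 of 9 called higher. Markers of white adipocytes summed to 2360 to 2999 against 560 to 963 CPM, with 8 of 8 lower. Fibroblast markers (4618 to 10595 against 2310 to 2565 CPM) and macrophage markers (1011 to 1930 against 358 to 519 CPM) were each 8 of 8 lower, and endothelial markers (817 to 928 against 509 to 737 CPM) 6 of 7 lower. B cell markers (12.2 to 76.7 against 1.19 to 2.34 CPM) and T cell markers (9.49 to 33.0 against 1.30 to 2.60 CPM) were each 7 of 7 lower. Schwann cell markers (267 to 331 against 247 to 367 CPM) overlapped, with 2 of 10 lower, and brown adipocyte markers (604 to 1137 against 850 to 1015 CPM) overlapped, with 1 of 4 tested higher and Ucp1, Cidea, Elovl3 and Zic1 under 1 CPM on average. None of the markers was at 0 in every library. These markers moved with the diets alongside the lower cholesterol genes and alongside Fdft1 and Hsd17b7, and their part in those results was not tested.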

How the data were processed

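RNA of 6 gastrocnemius libraries was sequenced. Per the labels' protocols it was total RNA extracted with TRIzol. The authors deposited raw whole-number counts per Ensembl gene and, separately, FPKM values. The submitters' processing notes name Trim Galore 0.4.1, HISAT2 2.0.1, featureCounts 1.4.6, DESeq2 1.6.3 and the build GRCm38, with no roles. Neither the annotation release nor the strand setting nor the FPKM tool is given there or in the labels. Each library was matched to its diet and replicate by its column name.

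From the counts, edgeR 4.0.16 (R 4.3.3) gave the quasi-likelihood F test with TMM scaling, filterByExpr and robust estimation, adjusted by Benjamini-Hochberg over 15347 genes and called at an adjusted p under 0.05. The SE is the size of the log2 fold change over the square root of F. The common biological coefficient of variation was 0.161. FPKM values were tested with limma 3.58.1 on log2(FPKM + 1), a scale that understates the change of low genes. Ratios used a prior count of 0.5 and an exact permutation test over the libraries. SciPy 1.17.1 gave the Benjamini-Hochberg adjustment of its p-values. Between replicates of a diet, chi-square over its degrees of freedom was 16.5 to 52.4, so none was a copy of another.

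The 7 genes, the 7 function lists and the 9 cell type lists were chosen with earlier results of these data known, and the CACGTG search after the sequences were seen. Named were the 7 genes, up to 3 called genes of each function list in each direction by smallest p, and a set that was always named (Insig2, Scap, Srebf1, Cyp51, Dhcr7, Fdps, Lss and Msmo1 among it). Some genes of that set, and 1 ratio, are not reported here, though list counts include every gene tested. For likeness, the 3 most correlated genes of at least 10 CPM outside the lists were named, leaving out predicted genes. Nsdhl, Tmem97, Abca1, Coq2, Lrp8 and Ctsb were named after their values were seen. Gene positions and overlaps came from GENCODE on GRCm38, and promoters from RefSeq on GRCm38.p6.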

Additional observations from a re-analysis of the deposited data

How the results depend on the processing

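Size factors in the style of DESeq2, TMM without the 50 most abundant genes, DESeq2 1.42.0, limma-voom and a filter of 1 CPM in 3 libraries changed no call among the 7 genes. No alternative that was run turned the direction of any of the 7. Library totals alone, log2(FPKM + 1) and log2(FPKM + 0.1) each gave 1 gene higher and 5 lower, and log2(FPKM + 1) over all genes above 0 gave 0 higher. An adjusted p under 0.1 gave 5 lower. A change of at least 2-fold left 3 of the 7 called, 1 of them higher, 16 of the other pathway genes (33 without that limit) and 2762 genes in all. Leaving out 1 library gave 4 to 7 of the 7 called, 2 higher and 2 to 5 lower (5 without normal phosphate replicate 2), 27 to 34 pathway genes and 6152 to 7577 genes in all.

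In library totals alone, log2(FPKM + 1), log2(FPKM + 0.1) and log2(FPKM + 1) over all genes above 0, in that order, Hmgcs1 was called at -0.79, -0.71, -0.77 and -0.71, Idi1 at -1.12, -0.76, -0.93 and -0.76, and Fdft1 was not called at 0.36, 0.22, 0.23 and 0.22. In the last of these Hsd17b7 (0.69) and Insig1 (-1.22) lost their calls. With no filter on low counts Insig1 (-1.01) lost its call and Idi1 (-0.63) gained one. Leaving out 1 library gave Hmgcs1 -0.46 to -0.20, Idi1 -0.79 to -0.36, Insig1 -1.29 to -0.59, Fdft1 0.61 to 0.96, Hsd17b7 1.36 to 1.84, Sqle -1.62 to -1.13 and Srebf2 -0.80 to -0.65.

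Signs turned for Insig2 (-0.044), Srebf1 (-0.37), Fdps (-0.18), Mbtps2 (-0.11), Fnta (-0.13) and Coq2 (-0.039) with library totals alone. They turned for Srebf1 (-0.32), Fdps (-0.11), Mbtps2 (-0.038), Fnta (-0.14) and Soat1 (0.092) on log2(FPKM + 1), with or without the filter, and for Srebf1 (-0.34), Fdps (-0.12), Mbtps2 (-0.046) and Fnta (-0.14) on log2(FPKM + 0.1). Leaving out normal phosphate replicate 1 or 2 or high phosphate replicate 1 turned Srebf1 (-0.049, -0.031 and -0.010; range over the libraries -0.049 to 0.46). Leaving out normal phosphate replicate 3 turned Lss (range -0.21 to 0.17) and the log2 ratio of Insig1 to Srebf2 (range -0.47 to 0.086). Apart from the shifts that the scaling itself makes, the cause of these changes was not tested.

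Same-numbered libraries did not deviate together (r -0.0215, 0.0223 and 0.0188). Such small r from 3 libraries per diet cannot exclude that the numbers mark a pairing with small effects. With the replicate block 7328 genes were called, with 5 of the 7 genes and 33 other pathway genes, and no call among the 7 changed. With 3 libraries per diet and 49 counts at the least, a gene such as Idi1 has an unadjusted 95% interval of -1.21 to -0.084. Its log2 fold change of -0.65 was itself not called by edgeR (adjusted p = 0.0563). Changes of that size or smaller at its level could thus not be told from none at the threshold used.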
